A study of Mus musculus with 6 samples.

Results

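The 44 genes described here encode nucleolar ribosome assembly factors of the mouse. They are a list of known factors built around Utp4, a scaffold protein of the small subunit processome, because Utp4 was counted 2, 2 and 0 times in I/R + Dex libraries, against 87, 77 and 92 times in I/R libraries. That difference chose the list, so it is given as a description. The fit across all genes puts Utp4 past its threshold, and this is used in support of nothing. The values of the other genes come from the same comparison. Of the 44 symbols, 42 were found in the authors' table of the comparison and 2, Utp23 and Ltv1, through a reference table of gene names. The gene table holds 57010 genes, of which 16909 had a count in at least 1 library, and all 44 were among these.

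By their labels the cells were MLE-12, an immortalised line of wild type genotype derived from mouse lung epithelium. Those of the I/R + Dex group received dexmedetomidine at 10 µM, a drug that activates alpha-2 adrenergic receptors, for 12 h, then spent 12 h in 1% oxygen and 4 h at normal oxygen. Those of the I/R group went through the same hypoxia and reoxygenation without the drug. Polyadenylated RNA was sequenced in 3 libraries per group, which the labels call independent biological replicates, all of batch 1, and no library of cells kept at normal oxygen is part of the comparison.

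Total counts ranged from 2333546 to 2586743 in I/R + Dex libraries and from 2607952 to 2941989 in I/R libraries. Taking 3 counts as the limit for counting error alone, a gene with a count of 0 could stand at up to 1.16 to 1.29 CPM in I/R + Dex libraries and up to 1.02 to 1.15 CPM in I/R libraries. CPM are counts after scaling for library size. That the cells are epithelial is taken from the labels alone, and the epithelial markers did not show it. Of 12 epithelial markers 6 had 0 counts in all libraries, Krt8 and Krt18 included, and the sum over the 12 was 0 to 3.95 CPM in I/R + Dex libraries and 1.93 to 2.76 CPM in I/R libraries. Of 12 markers of alveolar type II cells 6 were at 0, Sftpc included, with sums of 6.15 to 22.5 CPM in I/R + Dex libraries and 8.62 to 23.0 CPM in I/R libraries. Most of this came from Abca3, which averaged 11.0 CPM in I/R + Dex cells and 12.3 CPM in I/R cells. All 12 fibroblast and mesenchymal markers were counted in at least 1 library, with sums of 1145 to 1323 CPM in I/R + Dex libraries and 1134 to 1243 CPM in I/R libraries. Vim, Fn1 and Col5a1 made up most of these sums. They averaged 506, 421 and 215 CPM in I/R + Dex cells and 482, 392 and 211 CPM in I/R cells. Col1a1, Col1a2 and Col3a1 averaged 24.2, 23.9 and 24.3 CPM in I/R + Dex cells and 24.7, 20.2 and 25.3 CPM in I/R cells. Thy1 and Pdgfra averaged 7.47 and 2.77 CPM in I/R + Dex cells and 8.44 and 4.51 CPM in I/R cells. Lum, S100a4 and Pdgfrb averaged only 0 to 0.516 CPM in either group. Dcn averaged 1.77 CPM in I/R + Dex cells and 1.84 CPM in I/R cells. Sums over 10 leukocyte markers were 28.5 to 39.9 CPM in I/R + Dex libraries and 23.2 to 29.8 CPM in I/R libraries, and those over 8 endothelial markers were 6.65 to 12.3 CPM in I/R + Dex libraries and 2.32 to 7.65 CPM in I/R libraries. The ranges of the 2 groups overlapped for each of the 5 marker lists.

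Ribosomes are built in the nucleolus from a long precursor RNA made by RNA polymerase I. The small subunit processome forms on this precursor while it is being transcribed. In it the UTP-A and UTP-B subcomplexes, the MPP10 complex and the U3 small nucleolar RNA with its proteins fold the precursor and prepare its cleavage. Box C/D particles methylate the RNA, box H/ACA particles convert uridine to pseudouridine, and further factors then release and mature each subunit.

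Utp4 is a WD-repeat protein of UTP-A, the subcomplex that binds the start of the precursor first. Its level was 0.551 ± 0.480 CPM in I/R + Dex cells and 31.8 ± 4.68 CPM in I/R cells (SD, n = 3 each). The groups did not overlap, and the log2 fold change fitted by edgeR was -5.73. Utp4 passed the filter on low counts only through the I/R libraries. In RNA from whole cultures, fewer expressing cells and less RNA per cell cannot be told apart. A whole gene could also stand at 0 in a single library. Fcf1, another processome factor, had 0, 102 and 86 counts in I/R + Dex libraries, against 137, 119 and 123 counts in I/R libraries. Whether the placing of counts bears on the Utp4 values was not tested.

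Most of this signal lay on a transcript that keeps an intron. ENSMUST00000212718, at chr8:107621221-107649719 on the plus strand of GRCm39, had 2, 2 and 0 counts in I/R + Dex libraries, against 73, 65 and 92 counts in I/R libraries. The coding form ENSMUST00000047629, at chr8:107620283-107649720, had 0 counts in every I/R + Dex library, against 14, 11 and 0 counts in I/R libraries. I/R replicate 3 was thus also at 0, so the groups overlapped for this form. In the authors' deposited table the intron-containing transcript has a log2 fold change of -5.63, and this is the signal around which the 44 genes were chosen.

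The sequence at the retained intron is shown because most Utp4 counts are assigned to the transcript that contains it. Its 942 bases are intron 14 of the coding transcript, which has 17 exons, and 43.8% of them are G or C. The lines give the transcript from GENCODE vM21, 5′ to 3′. In the first line the capitals mark the first 2 bases of the intron and the first stop codon in the reading frame that enters it. In the second they mark the last 2 bases of the intron.
Utp4 intron 14, start: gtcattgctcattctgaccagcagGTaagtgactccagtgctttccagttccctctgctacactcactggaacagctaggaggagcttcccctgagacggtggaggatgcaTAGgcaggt
Utp4 intron 14, end: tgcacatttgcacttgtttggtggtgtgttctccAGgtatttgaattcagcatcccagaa
The intron begins with GT and ends with AG, the usual splice site bases. The stop codon starts at base 88 of the intron, so the reading frame that enters the intron ends there.

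Wdr43 and Heatr1, the UTP-A partners with the most counts, had overlapping values in the groups. Wdr43, a WD-repeat protein, had 470, 354 and 362 counts in I/R + Dex libraries, against 306, 497 and 434 counts in I/R libraries. Its level was 163 ± 17.0 CPM in I/R + Dex cells and 152 ± 30.3 CPM in I/R cells (SD, n = 3 each). The log2 fold change was 0.10, with a 95% interval of -0.29 to 0.49. Heatr1, the HEAT-repeat member, had 53, 45 and 41 counts in I/R + Dex libraries, against 30, 57 and 44 counts in I/R libraries. Its log2 fold change was 0.25, with an interval of -0.40 to 0.90. For both genes the interval lay above -1.

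Wdr75 and Utp15 were counted too rarely for narrow intervals. Wdr75, another WD-repeat protein, had 21, 11 and 14 counts in I/R + Dex libraries, against 21, 19 and 8 counts in I/R libraries, with a log2 fold change of 0.09 and an interval of -1.10 to 1.28. Utp15, a further WD-repeat scaffold of UTP-A, had 12, 12 and 6 counts in I/R + Dex libraries, against 3, 8 and 0 counts in I/R libraries. The ranges of Utp15 overlapped, and it did not pass the low-count filter.

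**Figure D1:**
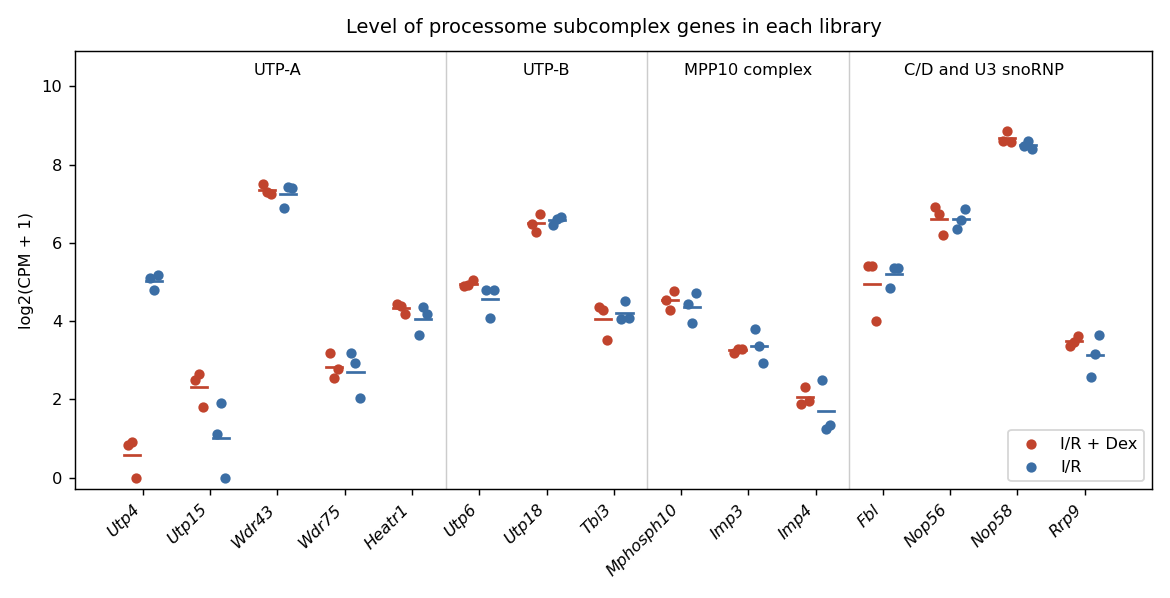
Level of the 15 genes of 4 processome subcomplexes on the log2(CPM + 1) scale. Points are libraries, short lines are means of 3 libraries, with I/R + Dex in red and I/R in blue. The widest gap between the groups is that of Utp4.

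UTP-B, the second scaffold to join the precursor, was measured through 3 genes. Utp6, a repeat protein of UTP-B, had 74, 67 and 77 counts in I/R + Dex libraries, against 70, 46 and 69 counts in I/R libraries. After scaling to library size the groups did not overlap, at 30.0 ± 1.74 CPM in I/R + Dex cells and 23.1 ± 6.27 CPM in I/R cells, yet the interval of the log2 fold change, -0.22 to 0.98 around 0.38, included 0. Utp18, a WD-repeat protein, had 230, 174 and 254 counts in I/R + Dex libraries, against 225, 283 and 258 counts in I/R libraries. Its log2 fold change was -0.06 and that of Tbl3, a further WD-repeat protein, was -0.14, and the groups overlapped for both.

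The MPP10 complex brings the U3 RNA and the precursor together. Mphosph10, its scaffold, had 58, 42 and 63 counts in I/R + Dex libraries, against 54, 42 and 66 counts in I/R libraries, a log2 fold change of 0.15 with an interval of -0.51 to 0.81. Imp3, which helps U3 pair with the precursor, had 21, 20 and 21 counts in I/R + Dex libraries, against 34, 27 and 17 counts in I/R libraries, a log2 fold change of -0.17. The ranges of both genes overlapped. Imp4, the partner of Imp3, had 4 to 12 counts per library over both groups and did not pass the filter.

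The proteins of box C/D particles and of U3 were counted more deeply. Nop58, a core protein of these particles, had 1005, 1060 and 926 counts in I/R + Dex libraries, against 929, 1122 and 870 counts in I/R libraries. Its log2 fold change of 0.20 had one of the narrowest intervals, -0.03 to 0.44. Nop56, its paired core protein, stood at 0.03, the methyltransferase Fbl at -0.14, and the U3-specific protein Rrp9 at 0.32, and for each the interval included 0. Fbl varied most among these, with 107, 95 and 36 counts in I/R + Dex libraries, against 73, 117 and 104 counts in I/R libraries.

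The 8 remaining processome factors had log2 fold changes from -0.42 to 0.39 where they could be tested. Bms1, the GTPase of the processome, had 196, 260 and 265 counts in I/R + Dex libraries, against 276, 240 and 176 counts in I/R libraries, a log2 fold change of 0.23 with an interval of -0.29 to 0.74. Nop14 had the lowest value, -0.42, with 18, 5 and 31 counts in I/R + Dex libraries, against 29, 28 and 23 counts in I/R libraries. Emg1, a methyltransferase of the small subunit RNA, had the highest, 0.39. Utp3 stood at -0.17, Utp11 at 0.10 and Utp14a, which in yeast activates a helicase of the processome, at -0.20. Utp20, with 2 to 14 counts per library, and Utp23 did not pass the filter, Utp23 being seen only as 3 counts in I/R replicate 2.

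Over the processome without Utp4, 18 of 22 genes were tested. Of these 11 had a log2 fold change above 0 and 7 below, with a median of 0.09 and a range of -0.42 to 0.39. The summed level of the 22 genes was 1082, 1142 and 1022 CPM in I/R + Dex libraries, against 950.5, 1039 and 1000.1 CPM in I/R libraries, and these ranges overlapped.

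Box H/ACA particles were represented by 4 genes. Dkc1, the pseudouridine synthase, had 735, 685 and 820 counts in I/R + Dex libraries, against 628, 707 and 797 counts in I/R libraries. Its level was 309 ± 28.8 CPM in I/R + Dex cells and 264 ± 38.1 CPM in I/R cells, a log2 fold change of 0.23 with an interval of -0.06 to 0.52. The smaller core proteins Gar1 and Nhp2 gave the extremes of the 35 tested assembly genes other than Utp4, at 0.80 and -0.55, on 3 to 33 counts per library. Their intervals, -0.76 to 2.37 for Gar1 and -1.78 to 0.69 for Nhp2, included 0, and Nop10, with 2 to 13 counts per library, did not pass the filter.

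The later factors of the small subunit were near the limit of detection. Tsr1, a GTPase-like factor of the late particle, had 18, 22 and 10 counts in I/R + Dex libraries, against 26, 17 and 16 counts in I/R libraries, a log2 fold change of -0.08 with an interval of -1.18 to 1.02. Rrp12, an export factor, had 9, 2 and 15 counts in I/R + Dex libraries, against 4, 27 and 11 counts in I/R libraries, and its interval of -2.54 to 1.53 reached lowest of the 34 tested genes other than Utp4. Nop9, an RNA-binding factor, stood at 0.22. Nob1, the nuclease that makes the final 3′ end of the small subunit RNA, its partner Pno1 and the export adaptor Ltv1 had 0 to 15 counts per library and did not pass the filter.

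Of 8 factors of the large subunit 7 were tested. Rrs1, which helps bring the 5S particle into the large subunit, had 254, 232 and 201 counts in I/R + Dex libraries, against 220, 200 and 189 counts in I/R libraries. Its level was 94.6 ± 9.77 CPM in I/R + Dex cells and 75.4 ± 7.88 CPM in I/R cells (SD, n = 3 each), and the groups overlapped. The log2 fold change was 0.33 with an interval of 0.00195 to 0.65, the only interval among these 34 genes that left out 0, and Rrs1 did not pass the threshold after adjustment over all genes. Pes1, Bop1 and Wdr12 form the PeBoW complex, which processes the spacer of the large subunit precursor.

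Pes1 had 344, 310 and 301 counts in I/R + Dex libraries, against 299, 391 and 331 counts in I/R libraries, a log2 fold change of 0.06 with an interval of -0.18 to 0.31. Bop1 stood at -0.07 and Wdr12 at -0.20. In Wdr12 a single library stood apart, since I/R + Dex replicate 1 had 89 counts and the other 5 libraries had 194 to 241. Nop53 did not overlap between groups, at 7.23 ± 1.79 CPM in I/R + Dex cells and 4.30 ± 0.503 CPM in I/R cells, but its interval of -0.26 to 1.75 included 0. Nop2, a methyltransferase of the large subunit RNA, stood at -0.40, and Nop16, with 0 to 7 counts per library, did not pass the filter.

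Npm1, Ncl and Nolc1 are abundant nucleolar proteins that act as chaperones and scaffolds. Ncl, nucleolin, had 1552, 1467 and 1289 counts in I/R + Dex libraries, against 1638, 1634 and 1504 counts in I/R libraries. It had the narrowest interval of the list, -0.19 to 0.21 around 0.01. Npm1, nucleophosmin, had 767, 611 and 510 counts in I/R + Dex libraries, against 573, 646 and 592 counts in I/R libraries, a log2 fold change of 0.21 with an interval of -0.09 to 0.51. Nolc1 stood at 0.50 with an interval of -0.37 to 1.37.

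**Figure D2:**
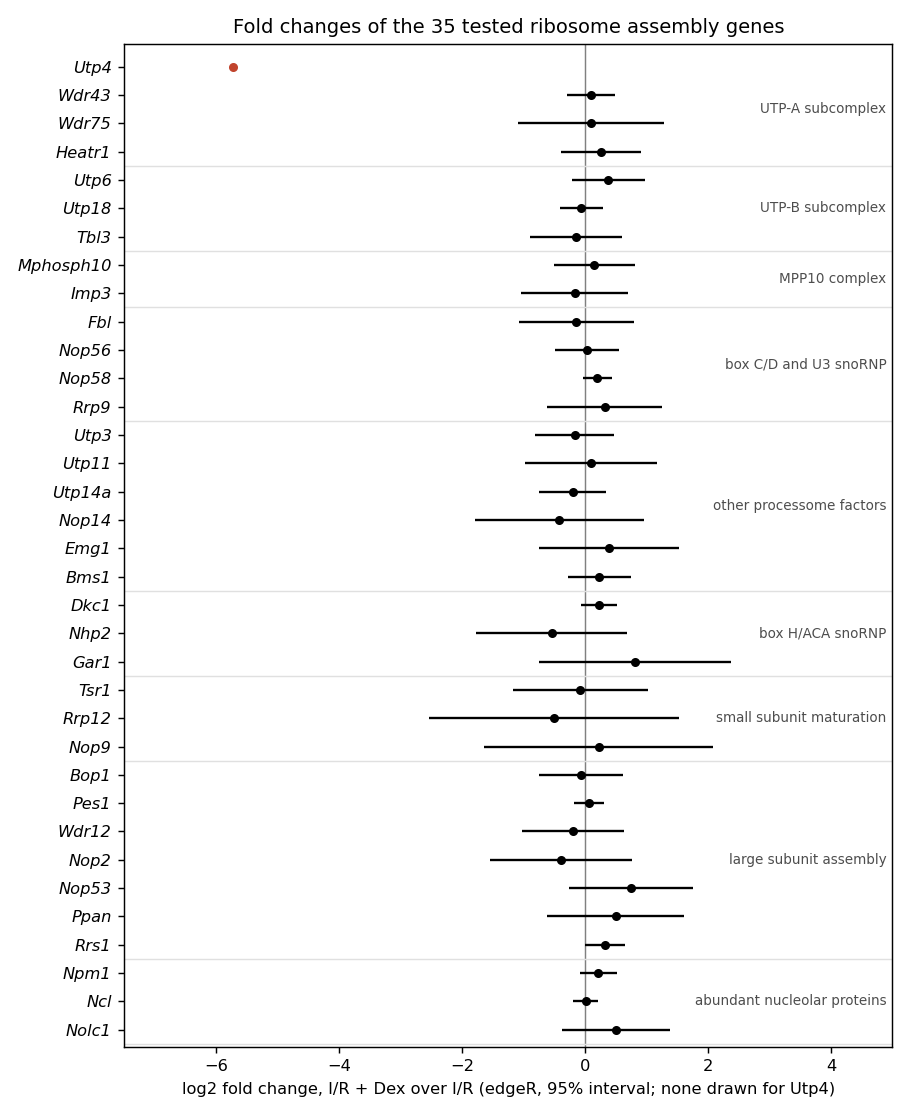
Fold change (log2, I/R + Dex over I/R) of the 35 tested genes, grouped by role, with 95% intervals from edgeR for the 34 genes other than Utp4. Utp4, in red, lies at -5.73 and the other 34 genes lie between -0.55 and 0.80.

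Over the whole list, 35 of 44 genes passed the low-count filter. Of these 1, Utp4, passed an adjusted p of 0.05 in edgeR, and 0 were higher past it. Of the other 34, 1, Rrs1, had an unadjusted p under 0.05. The adjusted rule called 0.0675% of the 7412 genes tested in either direction, 0.027% lower and 0.0405% higher in I/R + Dex cells, and the unadjusted one called 3.39%. Because the list was built around Utp4, nothing is read from the count past the adjusted threshold. It fell to 0 when I/R + Dex replicate 1, I/R + Dex replicate 2 or any single I/R replicate was left out, with log2 fold changes of Utp4 from -6.16 to -5.19 over all such fits.

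Among the other 34 genes, 33 intervals included 0. The intervals of 24 lay above -1 and those of 17 lay wholly between -1 and 1, and their median half-width was 0.79. For the other 10 the interval reached below -1, so a fall of 1 log2 unit was not excluded. Of the 35 tested genes 21 had a log2 fold change above 0 and 14, Utp4 included, below. The median was 0.09, beside -0.00518 over all 7412 genes, and the median absolute log2 fold change was 0.21 beside 0.16. The groups did not overlap for 3 genes, which is 8.57% of the 35 beside 9.13% of all genes, 4.57% lower and 4.56% higher. Utp4, around which the list was built, is 1 of the 3, so nothing is read from this share. Among the other 34 genes the groups did not overlap for 2, Utp6 and Nop53, both higher.

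**Figure D3:**
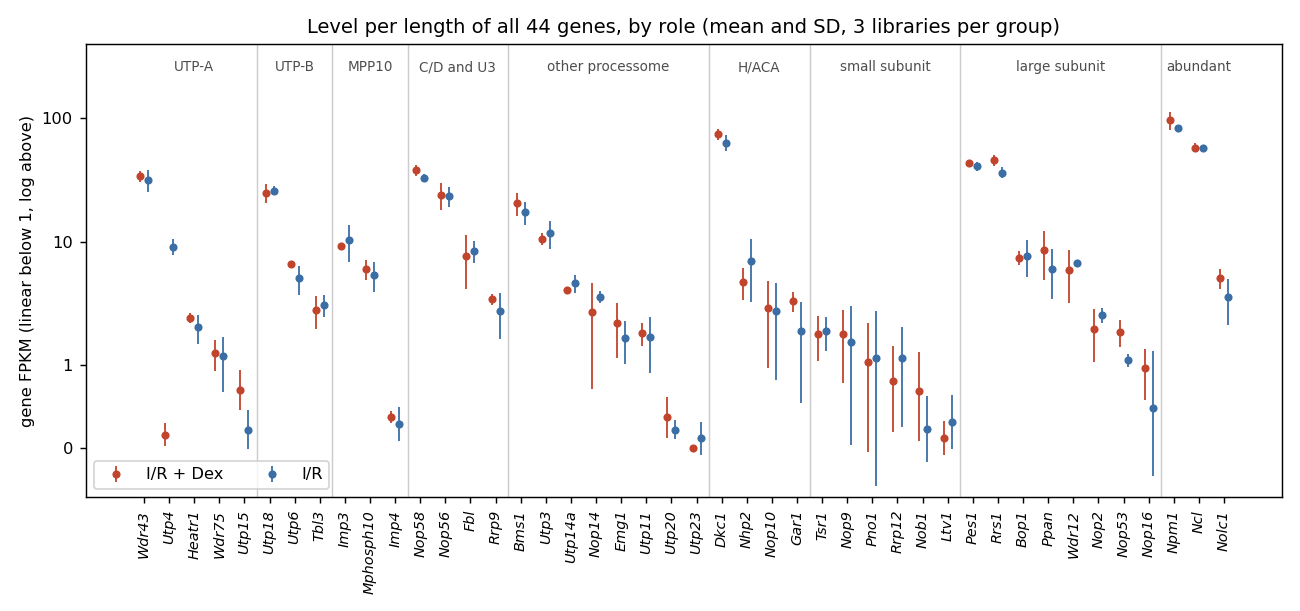
Level of all 44 genes per length as deposited gene FPKM, grouped by role, with the mean and SD of 3 libraries in I/R + Dex cells (red) and I/R cells (blue); the axis is linear below 1 and logarithmic above. By this measure Npm1, Dkc1 and Ncl stand highest and Utp23 lowest. On this axis Utp4 has the widest gap between the groups, though the plain difference in FPKM is larger for Npm1, Dkc1 and Rrs1.

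Levels can be compared between genes only per length, for which the deposited gene FPKM was used. Over all 6 libraries Npm1 averaged 89.8 FPKM, Dkc1 69.0 FPKM, Ncl 57.6 FPKM, Pes1 42.2 FPKM and Rrs1 41.2 FPKM. The neighbours Pes1 and Rrs1 did not differ beyond the spread between libraries, and neither did Nop58 at 35.6 FPKM and Wdr43 at 32.7 FPKM, which came next. The median over the 44 genes was 3.73 FPKM. The gene length behind these values is not stated, and the deposited FPKM summed over the transcripts of each gene gave another order. By that sum Dkc1 averaged 235 FPKM, Npm1 203 FPKM, Nop56 155 FPKM, Ncl 89.0 FPKM and Nop58 82.9 FPKM, with Pes1 at 44.3 FPKM and Rrs1 at 40.8 FPKM. The order of the levels thus depends on which of the 2 values is read.

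Within UTP-A the 5 genes stood at unequal levels by gene FPKM. Wdr43 had 33.8 ± 3.32 FPKM in I/R + Dex cells and 31.5 ± 6.38 FPKM in I/R cells, and the 2 ranges overlapped. Heatr1 had 2.42 ± 0.213 FPKM in I/R + Dex cells and 2.03 ± 0.533 FPKM in I/R cells. Utp4 had 0.158 ± 0.138 FPKM in I/R + Dex cells and 9.12 ± 1.34 FPKM in I/R cells. In I/R cells it therefore stood second of the 5 genes, between Wdr43 and Heatr1, and in I/R + Dex cells it was the lowest, below Utp15 at 0.702 ± 0.243 FPKM.

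The transcript table was read to see on which annotated form the counts of each gene lay. The 44 genes had counts on 152 transcripts, and 45 of these passed the low-count filter. In edgeR 0 of the 45 passed an adjusted p of 0.05, as did 0.0% of all 9882 transcripts tested, while 3 of the 45 and 2.92% of all had an unadjusted p under 0.05. With DESeq2 on the same transcripts 2 of the 45 passed, the intron-containing form of Utp4 and one of Ppan, beside 1.36% of all tested, and these are also the 2 of 80 listed as significant in the authors' deposited table, which lists 0.577% of its 18021 transcripts. The groups did not overlap for 5 of the 45, beside 9.67% of all transcripts tested. The counts of 3, 2 and 5 each include the intron-containing form of Utp4. The list was chosen around that form, so nothing is read from these counts.

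Ppan, a factor of the early large subunit, had a pattern that its gene count did not show. The gene had 117, 94 and 42 counts in I/R + Dex libraries, against 86, 36 and 74 counts in I/R libraries, with a log2 fold change of 0.50 and an interval of -0.62 to 1.62. Its transcript ENSMUST00000147780, at chr9:20799581-20803474 on the plus strand of GRCm39, had 54, 82 and 38 counts in I/R + Dex libraries, against 0 counts in every I/R library. With a floor of 3 counts in each I/R library, the transcript was higher in I/R + Dex cells by at least 21.8-fold. Without single libraries this was at least 16.5-fold to 25.6-fold. The floor covers counting error alone, not the spread between libraries or the placing of counts on one form or another. This transcript passed the filter on low counts only through the I/R + Dex libraries. It is described because the authors' deposited table lists it as significant in the same comparison. The adjusted p given there, 2.91e-07, is thus used in support of nothing.

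Other forms of Ppan varied differently. ENSMUST00000145231, whose 3914 bases include every intron of its span, had 5, 3 and 2 counts in I/R + Dex libraries, against 18, 18 and 12 counts in I/R libraries, and the groups did not overlap. The coding form of the gene, ENSMUST00000004203, had 55, 0 and 0 counts in I/R + Dex libraries, against 67, 14 and 44 counts in I/R libraries, so it was present in only 1 of 3 I/R + Dex libraries.

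The form of Ppan that was higher keeps 2 introns that the coding form removes, and these are shown because they set the 2 forms apart. The lines are from GENCODE vM21, 5′ to 3′, with the first 2 and last 2 bases of each intron in capitals and, in the first line, the first stop codon in the reading frame as well.
Ppan intron 3: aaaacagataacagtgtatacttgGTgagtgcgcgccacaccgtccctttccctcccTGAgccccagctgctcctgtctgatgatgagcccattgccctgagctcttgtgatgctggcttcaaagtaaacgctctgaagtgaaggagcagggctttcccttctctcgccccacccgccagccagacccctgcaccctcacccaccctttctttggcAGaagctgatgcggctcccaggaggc
Ppan intron 8: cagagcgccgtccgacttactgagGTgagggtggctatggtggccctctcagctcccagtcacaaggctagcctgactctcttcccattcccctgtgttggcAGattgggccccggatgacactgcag
Intron 3 has 194 bases, of which 60.8% are G or C, and intron 8 has 80. The stop codon in intron 3 starts at its base 34.

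In Wdr43 the annotated form that held the counts differed between libraries of the same group. Its main coding form ENSMUST00000047086 had 463, 348 and 356 counts in I/R + Dex libraries, against 0, 493 and 425 counts in I/R libraries. A form annotated for nonsense-mediated decay, the pathway that removes RNA with an early stop codon, had 0 counts in every I/R + Dex library, against 305, 0 and 0 counts in I/R libraries. In I/R replicate 1, 305 of the 306 counts of the gene were thus placed on the other form.

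Similar placements occurred in single libraries of other genes. A second coding form of Nop58 had 346 counts in I/R replicate 3, 2 in I/R + Dex replicate 1 and 0 in the other 4 libraries. A retained-intron form of Utp6 had 41 counts in I/R replicate 2 only, and in that library its main coding form had 5 counts. The coding form of Nop56 had 125, 0 and 77 counts in I/R + Dex libraries, against 4, 0 and 0 counts in I/R libraries. A retained-intron form of Ncl had 0 counts in every I/R + Dex library, against 1, 71 and 55 counts in I/R libraries.

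**Figure D4:**
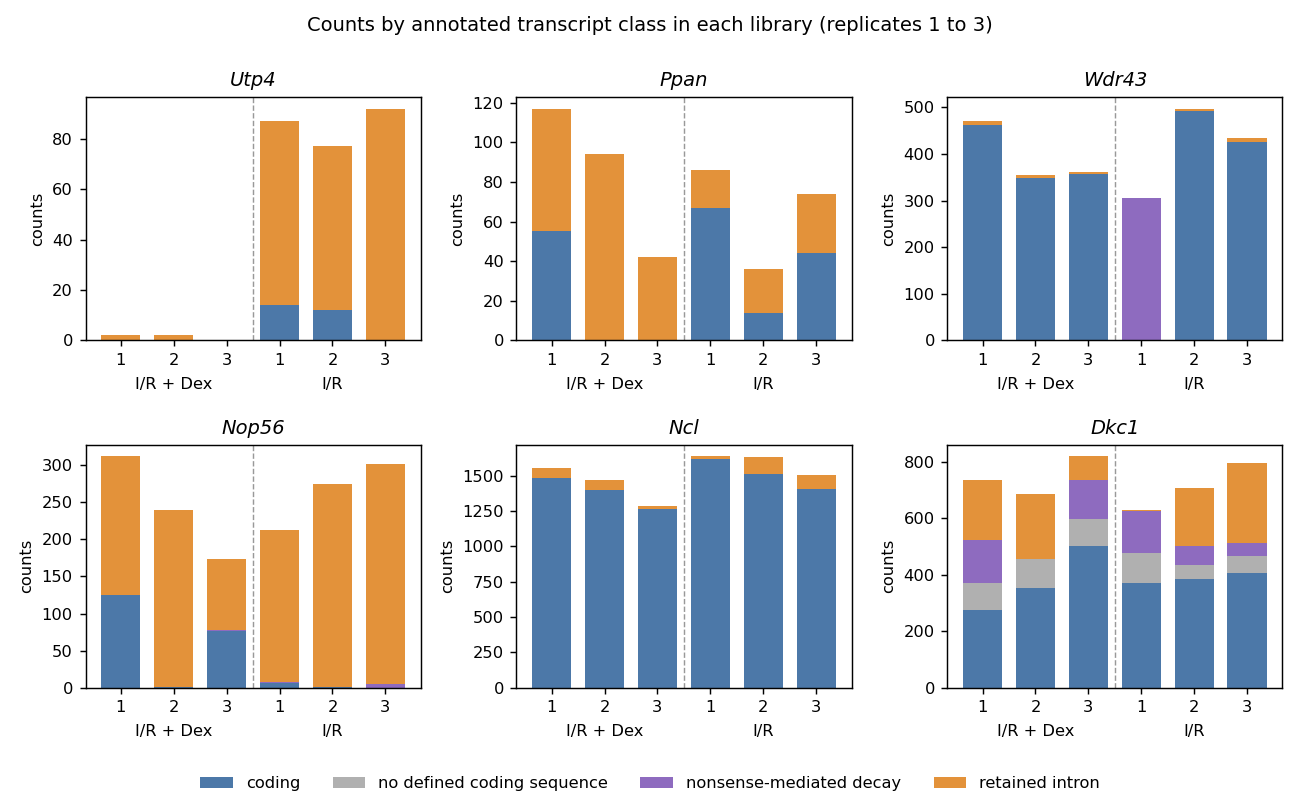
Counts of 6 genes in each library, stacked by annotated transcript class, with a separate count axis for each gene and I/R + Dex libraries left of the dashed line. Utp4 counts are mostly retained intron and nearly all in I/R libraries, and the class changes between single libraries of one group in Ppan, Wdr43 and Nop56.

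To see how common this was, the most counted transcript was followed in genes with at least 20 counts in every library and at least 2 counted transcripts. Utp4 could not enter, with under 20 counts in I/R + Dex libraries. Of 18 such assembly genes 11, or 61.1%, kept 1 top transcript in all 6 libraries, beside 66.8% of 3464 genes in the whole table. In 7, or 38.9%, the top transcript differed between libraries of the same group, beside 32.8%, and these were Ppan, Wdr43, Fbl, Utp6, Nolc1, Nop56 and Bop1. A switch between the groups, with 1 top transcript in each, was seen in 0 of the 18 and in 16 of the 3464, or 0.462%.

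Summed over the 44 genes, coding transcripts held 81.5% ± 3.37 of the counts in I/R + Dex cells and 79.3% ± 2.25 in I/R cells (SD, n = 3 each). Retained-intron forms held 11.0% ± 4.79 in I/R + Dex cells and 11.2% ± 4.80 in I/R cells. For both classes the ranges of the 2 groups overlapped. Coding transcripts held 77.8% to 84.3% in I/R + Dex libraries and 77.2% to 81.6% in I/R libraries. Utp18 had 0 of its counts on a coding form in any library, and Wdr75 had 1 such count.

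Promoter sequences were read as a description of the list. Whether they bear on the unlike values of Utp4 and its UTP-A partners was not tested. RefSeq promoters of build GRCm38.p6, from 250 bases before to 50 bases after the start, were found for 34 of the 44 genes, 36 promoters in all. The search covered both strands for CACGTG, the E-box bound by Myc and other factors, and for CCGGAAG, a core of ETS factor sites, which do not overlap each other, and for the TATAAA and the CCAAT element. CACGTG was in 10 of the 36, or 27.8%, beside 7.15% of 32851 promoters of the same length. CCGGAAG was in 14, or 38.9%, beside 8.86%. TATAAA was in 3, or 8.33%, beside 13.6%, and CCAAT was in 15, or 41.7%, beside 37.4%. In UTP-A, the E-box was in the windows of Utp4 and Wdr43, and the ETS core in those of Utp4 and Heatr1.

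The promoters of Utp4 and Wdr43 are shown as the pair of UTP-A genes that hold CACGTG. Capitals mark CACGTG and CTTCCGG, the reverse complement of CCGGAAG.
Utp4 promoter, chr8:106893390-106893689, plus strand: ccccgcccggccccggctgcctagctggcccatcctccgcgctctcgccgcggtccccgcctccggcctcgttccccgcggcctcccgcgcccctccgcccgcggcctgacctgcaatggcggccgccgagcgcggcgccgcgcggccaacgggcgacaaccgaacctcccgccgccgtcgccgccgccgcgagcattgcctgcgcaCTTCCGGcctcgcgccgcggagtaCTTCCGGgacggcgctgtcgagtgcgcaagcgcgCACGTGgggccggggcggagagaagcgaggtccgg
Wdr43 promoter, chr17:71615965-71616264, plus strand: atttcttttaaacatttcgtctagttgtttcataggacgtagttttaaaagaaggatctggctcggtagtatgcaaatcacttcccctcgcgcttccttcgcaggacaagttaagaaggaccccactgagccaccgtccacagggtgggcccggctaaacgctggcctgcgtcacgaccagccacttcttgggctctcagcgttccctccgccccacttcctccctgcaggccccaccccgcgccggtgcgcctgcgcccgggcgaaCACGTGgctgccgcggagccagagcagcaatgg
G and C made up 79.7% of the Utp4 window and 59.7% of the Wdr43 window, beside a median of 57.7% over the 36 and 52.7% over all promoters. These matches describe the letters only and say nothing of which factors bind.

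The genes next to Utp4 were read for the same libraries. Chtf8, on the opposite strand and 34 bases away in the reference annotation, had 179, 170 and 157 counts in I/R + Dex libraries, against 175, 232 and 134 counts in I/R libraries. The log2 fold change of Chtf8 was 0.07 ± 0.18 (standard error), and the groups overlapped. A second gene identifier named Chtf8, 42 bases away, had 6, 14 and 7 counts in I/R + Dex libraries, against 21, 9 and 79 counts in I/R libraries, and these ranges overlapped. Sntb2, downstream on the same strand, had 75, 64 and 70 counts in I/R + Dex libraries, against 97, 105 and 85 counts in I/R libraries, with -0.30 ± 0.17 (standard error) as log2 fold change. After scaling, Sntb2 stood at 28.1 to 29.1 CPM in I/R + Dex libraries and 32.8 to 37.1 CPM in I/R libraries. These ranges did not overlap, as was the case, lower in I/R + Dex cells, for 4.57% of all tested genes, and Sntb2 did not pass the threshold in edgeR.

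Other genes of ribosome synthesis were taken from 4 lists of known factors, and their counts at an unadjusted p under 0.05 stand beside 3.39% of all tested genes. Of 37 further processome factors 22 were tested, with 0 past the threshold in either direction, 2 with an unadjusted p under 0.05 and a median log2 fold change of -0.13. Those 2 were Ddx52, a helicase, at -2.06 and Aatf at -1.72. Ddx52 had 16, 4 and 8 counts in I/R + Dex libraries, against 29, 92 and 13 counts in I/R libraries.

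Of 49 further factors of the large subunit 35 were tested, with 0 past the threshold, 1 with an unadjusted p under 0.05 and a median of 0.04. The lowest p belonged to Rsl24d1, at 3.27, which had 104, 65 and 4 counts in I/R + Dex libraries, against 1, 2 and 16 counts in I/R libraries. Of 23 genes of the RNA polymerase I machinery 12 were tested, with 0 past the threshold, 2 with an unadjusted p under 0.05 and a median of 0.08. Rrn3, which recruits the polymerase to the ribosomal DNA, stood at 0.81. Of 14 exosome genes 5 were tested, with 0 past the threshold, 0 with an unadjusted p under 0.05 and a median of 0.22.

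Some genes have near-identical copies or overlap other genes, so their counts may be uncertain. Pseudogene copies held 32.1% of the joint counts of Fbl and its copy, 31.9% for Nop56 and 24.4% for Npm1. With the copies added, the log2 fold change was 0.08 for Nop56 and 0.19 for Npm1. Fbl had 532 counts over the 6 libraries and its pseudogene Gm5812 had 251. Tulp4, a separate protein-coding gene with a transcript that matched Fbl by sequence, had 365 counts, which were not taken as counts of Fbl. Emg1 overlaps Lpcat3 on the opposite strand, which had 1092 counts over the 6 libraries beside 136 for Emg1, and whether the counting used strand was not stated in what was read here. Nop56, Dkc1 and Tsr1 also overlap genes on the opposite strand, Idh3b, Mpp1 and Srr, so their counts are uncertain in the same way.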

How the data were processed

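The authors deposited whole-number counts per gene and per transcript, 1 column for each library, with equal gene and transcript totals in each library. They also deposited FPKM, with a gene length not stated in the sources used here. Their comparison table holds a deposited log2 fold change (I/R + Dex over I/R), p-values before and after adjustment, and group means of FPKM for each transcript, per the file headers. HISAT2 2.1.0, StringTie 2.2.4, DESeq2 1.30 and GRCm39 are named in the submitters' processing notes, without roles.

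Both count tables were filtered with filterByExpr, scaled with TMM and tested in edgeR 4.0.16 (R 4.3.3) with its robust quasi-likelihood test. P-values were adjusted by Benjamini-Hochberg over all 7412 genes or 9882 transcripts, and the threshold was 0.05. CPM used the TMM-scaled library sizes. Standard errors and 95% intervals came from the F statistic, and the fit was tested on simulated counts. Transcript sequences, neighbouring genes and the distances to them came from GENCODE vM21, on build GRCm38. The printed positions of transcripts were not taken from it. Transcript classes and gene names came from the authors' deposited table where it lists them. For the others they came from GENCODE vM21 or a reference table of gene names. Promoters came from RefSeq tables. Copies were found with blastn 2.17.0, at 90% identity over at least 200 bases and 50% of the transcript. DESeq2 1.42.0, limma 3.58.1 voom, a replicate block, no filter and leaving out each library were tried.

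The 44 genes and the lists were chosen with earlier results of these data known. Genes were described in full by rule: Utp4, all UTP-A genes, any gene past the threshold or with a transcript listed as significant, and in each role the tested gene with the lowest p and the one with the highest FPKM. Described transcripts had at least 10 counts in a library. Others named were chosen after their values were seen. P-values measure the spread between libraries that the labels call independent.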

Additional observations from a re-analysis of the deposited data

How the results depend on the processing

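The number of genes past the threshold, 5 in edgeR, was 16 with DESeq2, 1 with limma voom and 0 with the replicate number as a block. Leaving out single libraries gave 0 to 4. The number of assembly genes past it, 1, was 0 with voom and 0 with the block, and 0 to 1 without single libraries. It stayed at 1 only without I/R + Dex replicate 3 among these. The log2 fold change of Utp4, -5.73, was -5.71 with voom and -5.75 with the block, and -6.16 to -5.19 without single libraries. The replicate numbers share only a label, since deviations of same-numbered libraries correlated at -0.00961 to 0.0234.

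The number of transcripts past the threshold, 0, was 12 with no filter and 134 with DESeq2, and 0 to 3 without single libraries. The median level per length, 3.73 FPKM, was 5.30 as CPM per kilobase of counted transcript, and the cause was not tested. Without single libraries, computed for the 17 tested genes described in full, the sign turned for 7, with ranges of -0.056 to 0.19 for Wdr43, -0.21 to 0.38 for Wdr75, -0.19 to 0.041 for Utp18, -0.045 to 0.35 for Mphosph10, -0.38 to 0.11 for Imp3, -0.39 to 0.20 for Tsr1 and -1.18 to 0.29 for Rrp12. Over all settings 365 recomputed values kept their direction and their side of the threshold, or their count within 1.5 times. For the median log2 fold change and the coding share, a shift smaller than the standard error or SD counted as kept. Of the rest, 21 lost the threshold or had a lower count, and 8 gained it or had a higher count. A further 9 reversed in sign, and 1, the median level per length, moved. With DESeq2, 2 transcripts of the assembly genes passed, which edgeR did not call.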
